A study of Mus musculus with 8 samples.

Results

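The killer cell lectin-like receptors of natural killer (NK) cells that CD8+ T cells can also carry were followed across Elf4 genotype and activation. The 10 genes chosen were Klra3, Klra7, Klra8, Klrb1c, Klrc1, Klrc2, Klrd1, Klre1, Klrg1 and Klrk1, and every probe set annotated to one of them alone was taken. That gave 10 of the 45101 probe sets of the array, for 8 of the 10 genes. Klra3 and Klrb1c were each listed only on a probe set shared with another receptor gene and have no value of their own here. Klra7 and Klrc1 had 2 probe sets each and the other 6 genes 1 each. The filter on low values was passed by 7 probe sets, 1 each for Klra7, Klra8, Klrc1, Klrd1, Klre1, Klrg1 and Klrk1. Klrc2 and the second probe sets of Klra7 and Klrc1 did not pass it.

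RNA came from CD8+ cells purified from the spleen of C57BL/6 wild-type mice or of mice labelled Elf4-/-, whose strain background, age and sex the labels do not give. Elf4 encodes a transcription factor of the ETS family. Cells of each genotype were used untreated, called naive here, or after 3.5 days in culture on plates coated with antibody to CD3, with antibody to CD28 and a T cell growth supplement in the medium, called activated here. There were 2 arrays for each of the 4 groups, 8 in all. The labels do not say that replicates were separate mice or cultures, and the p-values below therefore cover the spread of these arrays alone, which may be technical.

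These receptors are C-type lectin-like membrane proteins, most of them encoded in the NK gene complex on chromosome 6. Klrd1 (CD94) pairs with Klrc1 (NKG2A) as an inhibitory receptor or with Klrc2 (NKG2C) as an activating one, and both pairs bind the nonclassical class I molecule Qa-1. Klrk1 (NKG2D) is an activating receptor for stress-induced ligands of the Rae1 and H60 families and signals through the adaptor DAP10, encoded by Hcst. Klrg1 is an inhibitory receptor for cadherins. The Ly49 receptors of the Klra genes bind class I molecules, or, in the case of Klra8 (Ly49H), a protein of mouse cytomegalovirus. On CD8+ T cells several of these receptors mark antigen-experienced or memory-phenotype cells.

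The samples had the profile of CD8+ T cells, and the naive and activated arrays differed in more than activation. Cd8a read 4288 to 17150.2 intensity units and Cd3g 2061 to 16559, while Cd4 read 18.0 to 43.1. An array's median probe set lay between 63.9 and 86.0, which serves below as a mark of a dim signal. Neither probe set of Elf4 differed by genotype (adjusted p = 0.522 and 0.892 in naive, 0.373 and 0.814 in activated cells), and whether they lie in the deleted part was not analysed here, so they do not check the labels. Xist, expressed from the inactive X of female cells, was at 60.3 to 172 before and 7703 to 10011 after activation, and the Y-linked gene Eif2s3y at 2537 to 5146 before and 2.93 to 44.0 after. The Actb ratio of 3' to 5' signal, which climbs as RNA degrades, was 1.96 to 2.50 and 5.90 to 11.1. The array files of the naive and of the activated samples were named in separate series. Activation cannot be told apart from any of these. Both naive wild-type arrays carry the same array-file name in the labels, although their values differ. In bulk RNA, fewer cells of a type and less RNA per cell cannot be told apart, and this holds for every receptor below.

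Promoters are shown for Klrc1, Klre1 and Klra8, the receptors whose naive values separated by genotype. The sequences are from RefSeq on GRCm38.p6, 250 bases before to 50 after a transcript start listed there, read on the gene's own strand, and 8 of the 10 genes had an entry. Klrd1 and Klrg1 were the ones without. Klre1 and Klra8 have more than 1 window in that table, and the first is shown. The Klra8 window covers the annotated transcription start of its gene. Those of Klrc1 and Klre1 lie within the annotated span of their genes, so these are not the outermost starts. Capitals mark GGAAG or its reverse complement CTTCC, 1 form of the letters that ETS factors bind. Other forms, such as GGAA followed by another letter, were neither marked nor counted.
Klrc1, chr6:129678924-129679223, minus strand: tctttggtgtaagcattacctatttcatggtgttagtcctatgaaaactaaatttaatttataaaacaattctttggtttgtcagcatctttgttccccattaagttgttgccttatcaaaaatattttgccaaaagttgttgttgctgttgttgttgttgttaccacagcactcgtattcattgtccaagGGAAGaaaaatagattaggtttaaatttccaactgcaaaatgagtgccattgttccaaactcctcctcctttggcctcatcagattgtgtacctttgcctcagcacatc
Klre1, chr6:129577963-129578262, plus strand: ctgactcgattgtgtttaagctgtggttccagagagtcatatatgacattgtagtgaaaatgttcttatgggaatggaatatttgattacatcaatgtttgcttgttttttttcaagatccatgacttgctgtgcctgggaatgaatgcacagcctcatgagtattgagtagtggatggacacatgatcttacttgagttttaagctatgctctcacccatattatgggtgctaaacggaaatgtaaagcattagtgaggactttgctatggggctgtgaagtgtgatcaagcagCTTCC
Klra8, chr6:130129849-130130148, minus strand: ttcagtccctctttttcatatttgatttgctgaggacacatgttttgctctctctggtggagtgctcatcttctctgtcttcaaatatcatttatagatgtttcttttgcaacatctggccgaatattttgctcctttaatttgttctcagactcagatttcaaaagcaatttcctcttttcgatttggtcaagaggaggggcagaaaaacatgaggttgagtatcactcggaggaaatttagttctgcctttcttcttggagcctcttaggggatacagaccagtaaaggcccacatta
The Klrc1 and Klre1 windows held 1 match each to GGAAG or CTTCC and the Klra8 window 0. At least 1 match was present in 71.4% of 32851 promoter windows of this length, so a match is common. The Runx letters TGTGGT or ACCACA occurred once in the Klrc1 and once in the Klre1 window and in 16.8% of all windows. The T-box letters AGGTGTGA or TCACACCT were in 0 of the 3 windows shown and in 1.28% of all. These are matches of letters and not sites of binding.

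**Figure D1:**
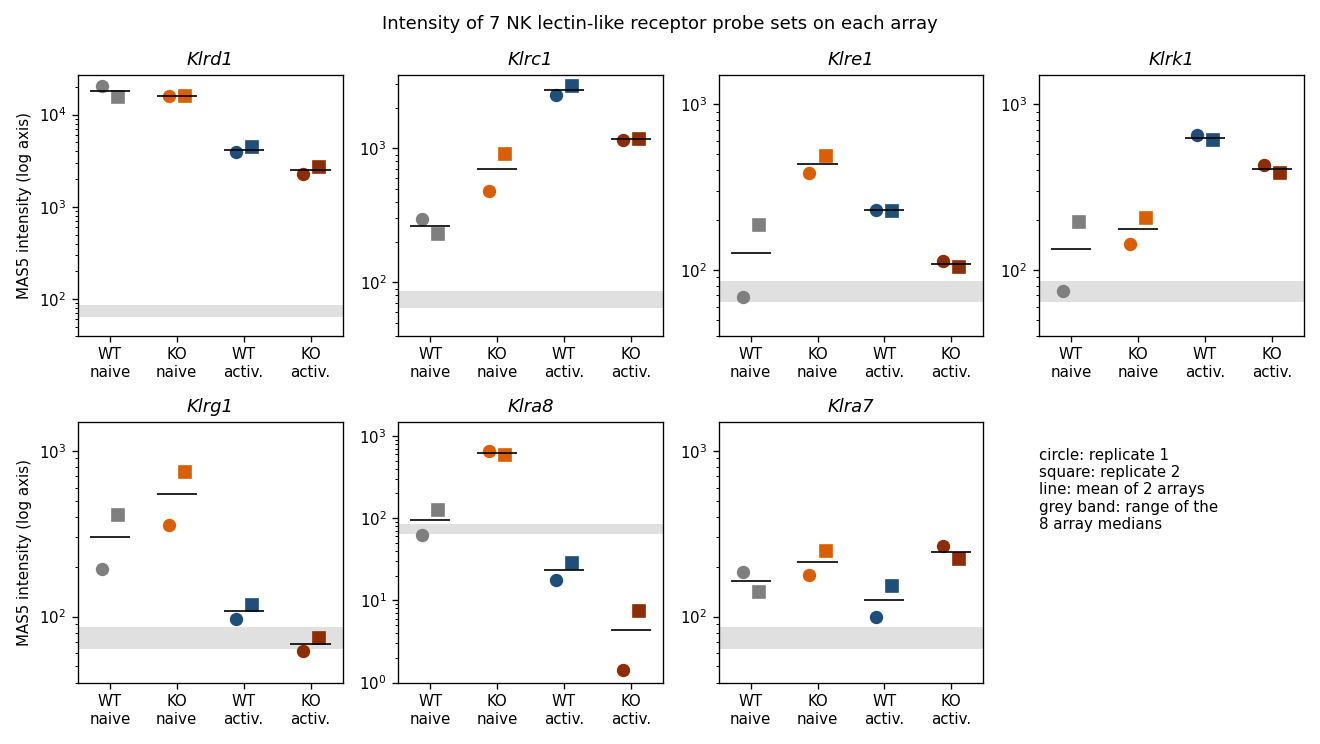
MAS5 intensity (log axis, a separate range in each panel) of the 7 receptor probe sets that passed the filter, on each of the 8 arrays. Circles are replicate 1, squares replicate 2, black lines the mean of 2 arrays and the grey band the range of array medians, 63.9 to 86.0. Klrc1 and Klrk1 sit higher on activated arrays, Klrd1 and Klrg1 lower, and Klra8 is well above the band only in naive knockout cells.

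The first comparison asked how activation moved the receptors in wild-type cells. Of the 7 probe sets tested, 2 rose (Klrc1 and Klrk1) and 3 fell (Klrd1, Klrg1 and Klra8), while Klre1 and Klra7 did not pass. The background was high, since 39.1% of all 27389 probe sets tested passed in this comparison, so the count of 5 of 7 is not in itself particular to the receptors. Their median change was −0.35 on the log2 scale, against −0.16 over all probe sets tested. By direction, 17.4% of all rose and 21.8% fell. The subunits of the inhibitory CD94/NKG2A receptor moved in opposite directions. In knockout cells 6 of the 7 passed, Klrc1 and Klrk1 upward and Klrd1, Klrg1, Klra8 and Klre1 downward, against a background of 41.6% (18.2% rose and 23.4% fell). The median there was −1.84, against −0.16 over all. Klra8 met the filter on low values on naive arrays alone, so its falls in these counts are no separate support. Of the 7 probe sets, 6 had naive values wholly apart from activated ones in each genotype, where 68.7% (wild type) and 71.4% (knockout) of all did not overlap. The 8 CD8 T cell markers tested all fell as well in both genotypes, with medians of −1.53 and −1.85. Of the 7 B cell markers 6 fell in each genotype, and of the 8 granulocyte markers 7 fell in the knockout and 0 in wild-type cells. The part of these shifts in the receptor values was not tested.

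Klrd1, the CD94 subunit shared by the NKG2 heterodimers, read 20272 and 15514 on the wild-type and 16068 and 15741 on the knockout arrays of naive cells. The activated arrays gave 3903 and 4446 (wild type) and 2286 and 2689.6 (knockout). All 4 naive arrays were above all 4 activated ones, and every value lay between the 92.3 and 99.3 percentiles of its array. Klrd1 fell 4.29-fold in wild-type cells, from 17893 ± 3364 to 4174 ± 384 (SD, n = 2), a log2 change of −2.09 (SE 0.15, adjusted p = 1.85e-06). It fell 6.39-fold in the knockout (log2 −2.67, SE 0.15, adjusted p = 3.13e-07). Here and below, adjusted p is that of limma with Benjamini-Hochberg adjustment over all probe sets tested, and log2 changes are on the log2(intensity + 16) scale, which understates changes of dim genes.

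Klrc1, the inhibitory NKG2A chain, moved the other way. It read 296 and 229 on the wild-type and 485 and 907 on the knockout arrays of naive cells. After activation the values were 2521 and 2925 (wild type) and 1160.4 and 1177 (knockout). The 4 groups did not overlap, in the order naive wild type, naive knockout, activated knockout, activated wild type. The rise in wild-type cells was 10.4-fold, with 262 ± 47.6 before and 2723 ± 286 after activation (log2 3.31, SE 0.27, adjusted p = 4.11e-06). In knockout cells the rise was 1.68-fold, from 696 ± 298 to 1169 ± 11.4 (log2 0.80, SE 0.27, adjusted p = 0.034). The knockout call was lost without knockout naive replicate 1 (log2 0.36, adjusted p = 0.258), and also without either wild-type or either knockout activated array (log2 0.79 to 0.81, adjusted p = 0.0573 to 0.13). The other Klrc1 probe set read 2.47 to 55.1 and was under the median of every array. It was not tested.

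Klrc2, the activating NKG2C chain that competes with Klrc1 for CD94, gave no usable signal. Its own probe set read 1.48 to 29.7 on the 8 arrays, between the 0.95 and 28.5 percentiles of its array. A probe set annotated to both Klrc2 and Klrc3 read 69.1 and 66.4 (wild type) and 75.7 and 60 (knockout) on naive arrays. On activated arrays it read 57.5 and 49.2 (wild type) and 19.3 and 4.86 (knockout). It did not pass the filter, and its signal can be given to neither gene.

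Klrk1, the activating receptor NKG2D, read 74.9 and 194 on the wild-type and 144 and 205 on the knockout arrays of naive cells. On activated arrays it was 647 and 605 (wild type) and 429 and 386 (knockout). Every activated array was above every naive one. It rose 4.66-fold in wild-type cells, where the means were 134 ± 84.0 and 626 ± 29.3 (log2 2.22, SE 0.37, adjusted p = 0.000713). The knockout showed a 2.33-fold rise, with means of 175 ± 43.4 and 408 ± 30.0 (log2 1.17, SE 0.37, adjusted p = 0.0265), a call lost without knockout naive replicate 1 or either knockout activated array.

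Klrg1, the inhibitory receptor that marks terminally differentiated effector cells, read 193 and 411 on the wild-type and 355 and 743 on the knockout arrays of naive cells. Activated cells gave 97.3 and 118 (wild type) and 61.9 and 74.5 (knockout). The naive values were above the activated ones in both genotypes, and the activated values were near the array medians. It fell 2.80-fold in wild-type cells (log2 −1.28, SE 0.43, adjusted p = 0.0353). In the knockout it fell 8.05-fold (log2 −2.66, SE 0.43, adjusted p = 0.000486). The wild-type call was lost without wild-type naive replicate 2 or either wild-type activated array, and with quantile normalization or centring on the array median.

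Klre1, a receptor that forms heterodimers with Klri1 or Klri2, read 68.2 and 185 on the wild-type and 383 and 487 on the knockout arrays of naive cells. The activated arrays gave 229 and 227 (wild type) and 113 and 104 (knockout). Naive and activated values did not overlap in either genotype, but in opposite order. It fell 3.99-fold in the knockout, from 435 ± 73.5 to 109 ± 6.31 (log2 −1.84, SE 0.40, adjusted p = 0.00326). The wild-type change of 0.91 had a 95% interval of 0.032 to 1.78 (adjusted p = 0.0953). That change passed with quantile normalization, with centring on the median and without wild-type naive replicate 2.

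The Ly49 genes were represented by Klra8 and Klra7. Klra8 (Ly49H), an activating receptor, read 62.1 and 126 on the wild-type and 664 and 588 on the knockout arrays of naive cells. After activation the values were 17.8 and 28.6 (wild type) and 1.44 and 7.37 (knockout). It was above the array's median on 3 arrays only, all of them naive, so it passed the filter through the naive groups alone. A fall of Klra8 was favoured by this, so its calls on activation are no separate support. It fell by 4.99 on the log2 scale in the knockout (SE 0.49, adjusted p = 1.38e-05). In wild-type cells it fell by 1.44 (SE 0.49, adjusted p = 0.0368), a call kept in 7 of 17 alternative settings. No fold is given, since the activated values lie far below the array medians.

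Klra7 (Ly49G), an inhibitory receptor, read 186 and 141 on the wild-type and 179 and 248 on the knockout arrays of naive cells. On activated arrays it was 99.3 and 153 (wild type) and 266 and 222 (knockout). Naive and activated values overlapped in both genotypes, with changes of −0.35 (95% interval −1.09 to 0.40, adjusted p = 0.455) in wild-type and 0.19 (−0.55 to 0.93, adjusted p = 0.684) in knockout cells. Its second probe set read 4.52 to 87.4 and was not tested. The tested probe sets of Klra7 and Klra8 have identifiers ending in _x_at, which marks probes that may cross-hybridise with other genes, and the Ly49 genes are close relatives. Their signal cannot be assigned to 1 Ly49 gene with certainty. Those of Klrc1, Klrd1, Klre1 and Klrg1 end in _at and that of Klrk1 in _a_at, so none of the tested members rested on an _s_at probe set.

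**Figure D2:**
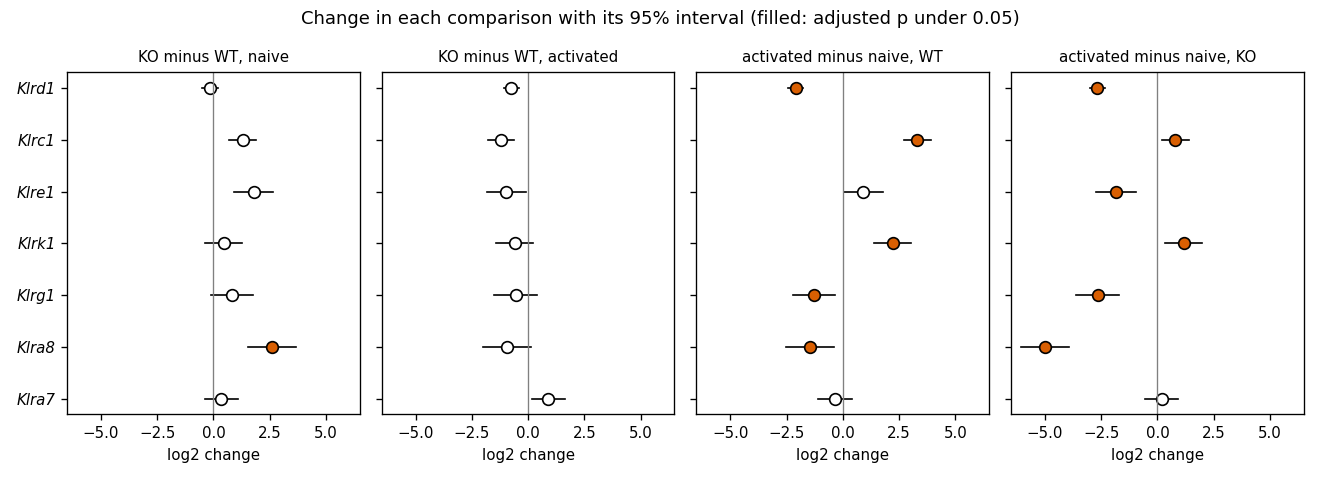
Log2 change of each receptor probe set in the 4 comparisons (points), with the 95% interval of the limma fit (lines). Filled points passed an adjusted p of 0.05. Only Klra8 passed between genotypes, in naive cells, while 5 passed on activation in wild-type and 6 in knockout cells.

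The second comparison asked which receptors differed by Elf4 genotype in naive cells. The strain background of the knockout mice is not given, so an effect of Elf4 cannot be told apart from one of strain. Klra8 was 6.64-fold higher in the knockout, 626 ± 53.9 against 94.3 ± 45.5 (SD, n = 2), a log2 change of 2.60 (SE 0.49, 95% interval 1.53 to 3.68, adjusted p = 0.0493). It was the 1 of 7 that passed, where 0.562% of all probe sets tested did (0.314% that were higher). Klra8 met the filter on low values through both knockout naive arrays, the group where it was high, and wild-type naive replicate 2. Its call set against that share is therefore no separate support, and with no filter the call was lost. The call lay at the threshold and was kept in 4 of 17 alternative settings, and it was lost without any single array other than wild-type naive replicate 2, with changes from 2.17 to 3.04. Klrc1 was 2.65-fold higher (log2 1.30, SE 0.27, adjusted p = 0.0733) and Klre1 3.43-fold higher (log2 1.78, SE 0.40, adjusted p = 0.098). Neither passed, although both knockout values of each lay above both wild-type values. Of the 7 probe sets, 3 did not overlap between genotypes, where 38.2% of all probe sets did not.

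The remaining receptors overlapped between genotypes in naive cells. Klrg1 gave 0.83 (95% interval −0.12 to 1.77, adjusted p = 0.49), Klrk1 0.45 (−0.37 to 1.27, adjusted p = 0.703) and Klra7 0.35 (−0.39 to 1.09, adjusted p = 0.755). Klrd1 gave −0.16 (−0.49 to 0.18, adjusted p = 0.757), an interval that holds no 2-fold change. The median over the 7 was 0.83, against −0.0038 over all probe sets tested. Wild-type naive replicate 2 read higher than replicate 1 for Klra8, Klre1, Klrg1 and Klrk1, by 2.04 to 2.71 times, and lower for Klrc1, Klrd1 and Klra7. Without replicate 1 the Klrk1 change was −0.16, and without replicate 2 it was 1.05. Klrg1 moved between 0.31 and 1.34 when a naive array was left out. Without wild-type naive replicate 2 Klre1 passed at 2.41 (adjusted p = 0.0141). Without knockout naive replicate 1 Klrc1 passed at 1.74 (adjusted p = 0.0151).

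Markers of other cells moved beside these values in naive cells. The summed intensity of 6 NK markers with a probe set was 471 to 674 on the wild-type and 855 to 1536 on the knockout arrays. Of the 4 tested 0 passed, but all 4 were higher in the knockout, with a median log2 change of 0.78. Fcgr3, with the smallest p of the 4, read 73.4 and 27 (wild type) and 308 and 208 (knockout) (log2 2.12, adjusted p = 0.2). Tyrobp, the adaptor DAP12 used by Ly49H, read 147 and 296 (wild type) and 315 and 773 (knockout) (log2 1.18, adjusted p = 0.328). The most specific NK marker, Ncr1, read 7.93 to 45.1 and Itga2 14.2 to 46.5 on the 4 naive arrays, under the array median on each. Ncr1 averaged 17 (wild type) and 26.7 (knockout), and Itga2 34.1 (wild type) and 22.7 (knockout). The higher NK marker sum in the knockout came mainly from Tyrobp, Fcgr3 and Fcer1g. The part of granulocytes or macrophages in these was not tested. The 8 granulocyte markers summed to 405 to 688 on the wild-type and 4647 to 19478 on the knockout arrays, and 4 of them rose (Ngp, S100a8, S100a9 and Lcn2). The higher value was that of knockout naive replicate 2, which also had the highest sum of 7 B cell markers, 10959 against 4087 to 5057 on the other 3 naive arrays. Without that array the changes were 2.69 for Klra8, 0.86 for Klrc1, 1.61 for Klre1 and 0.31 for Klrg1. The Klra8 call was lost without it (adjusted p = 0.265). The other knockout naive array also had higher granulocyte and NK marker sums than both wild-type arrays. The 7 macrophage markers summed to 2125 to 2569 (wild type) and 3532 to 6098 (knockout). All 5 tested were higher and 0 passed. Sums of 5 platelet and erythroid markers were lower in the knockout, 346 to 378 against 515 to 537. Of 2 CD4 and regulatory T cell markers tested, Gpr83 rose (2.10, adjusted p = 0.0493) and Cd40lg gave −0.29. The part of other cells in the values of Klra8 and the other receptors was not tested.

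**Figure D3:**
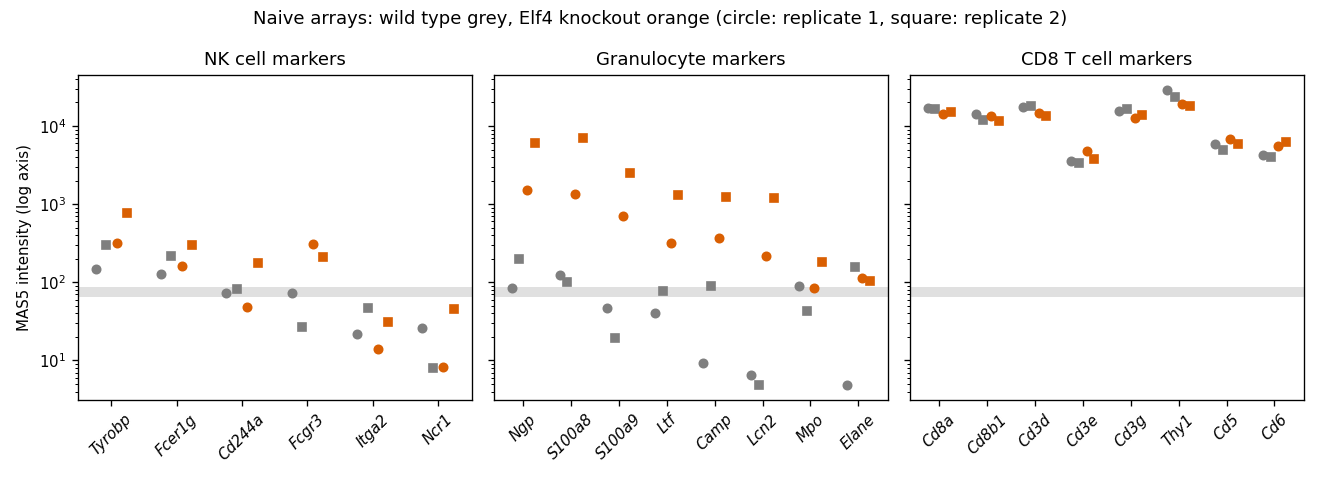
MAS5 intensity (log axis) on the 4 naive arrays of 6 NK cell, 8 granulocyte and 8 CD8 T cell markers, with 1 probe set per gene. Wild-type arrays are grey and knockout arrays orange, circles are replicate 1 and squares replicate 2, and the grey band is the range of array medians. Ncr1 and Itga2 lie under the band on the naive arrays, while Fcgr3, Tyrobp and granulocyte markers such as S100a8 are higher on both knockout arrays.

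The third comparison asked which receptors differed by Elf4 genotype in activated cells, with the same limit of strain background. With limma 0 of 7 passed, against a background of 0.215%. An unadjusted p under 0.05 was found for 4 of the 7 and for 2880 of all 27389 probe sets tested. All 7 probe sets had values that did not overlap between genotypes, where 47% of all probe sets did not overlap. Of the 7, 6 were lower in the knockout and Klra7 was higher, with a median of −0.74 against −0.019 over all. The CD94/NKG2A subunits had the smallest p-values. Klrc1 was 2.33-fold lower in the knockout (log2 −1.21, SE 0.27, 95% interval −1.80 to −0.61, adjusted p = 0.118). Klrd1 was 1.68-fold lower (log2 −0.74, SE 0.15, 95% interval −1.08 to −0.41, adjusted p = 0.0888). In a fit to the 4 activated arrays alone both passed (adjusted p = 0.00172 and 0.0154). Klrc1 also passed without either knockout naive array (adjusted p = 0.04 and 0.043), and Klrd1 without wild-type naive replicate 2 (adjusted p = 0.0487).

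Among the other receptors of activated cells, Klre1 gave −0.97 (95% interval −1.84 to −0.093, adjusted p = 0.418) and Klrk1 −0.60 (−1.42 to 0.22, adjusted p = 0.628). Klrg1 gave −0.55 (−1.50 to 0.39, adjusted p = 0.721), and Klra8 −0.94 (−2.02 to 0.13, adjusted p = 0.546) at intensities under every array median. Klra7 was 1.93-fold higher in the knockout, 244 ± 30.6 against 126 ± 38.3 (log2 0.89, 95% interval 0.15 to 1.63, adjusted p = 0.373). The NK markers summed to 234 to 289.7 in activated wild-type and 312 to 363 in activated knockout cells. Of the 4 tested, 2 were higher and 2 lower in the knockout, with a median of −0.09, and 0 passed. The Actb ratio was 5.90 and 5.98 on the wild-type and 7.44 and 11.1 on the knockout activated arrays, and its part in these values was not tested.

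The genotype effect was then compared between states. With limma 0 of 7 passed, against a background of 0.0584%. An unadjusted p under 0.05 was found for 5 of the 7 and for 2666 of all 27389 probe sets tested. Klrc1 had the smallest adjusted p. It was higher in the knockout in naive cells and lower in activated cells, on both arrays each time, and the difference of the effects was −2.51 on the log2 scale (SE 0.38, 95% interval −3.35 to −1.67, adjusted p = 0.0559). It passed with an offset of 64, with median centring, without probe sets that may cross-hybridise, and without wild-type naive replicate 1 or knockout naive replicate 1 (adjusted p = 0.0112 to 0.0499 in these 5 settings). The differences were −2.75 for Klre1 (SE 0.56, adjusted p = 0.125) and −3.55 for Klra8 (SE 0.69, adjusted p = 0.11). Klre1 passed without wild-type naive replicate 2 (−3.38, adjusted p = 0.0154). Klrg1, Klrk1, Klrd1 and Klra7 gave −1.38, −1.05, −0.59 and 0.54 (adjusted p = 0.495, 0.564, 0.391 and 0.777). All of these comparisons share arrays with one another.

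Adaptors and signalling proteins of the receptors were mostly lower after activation. Of 19 tested from a list of 22, 11 fell and Lcp2 rose in wild-type cells, with a median of −1.27. Over all probe sets tested 21.8% fell and 17.4% rose there, with a median of −0.16. In knockout cells 11 fell and 0 rose, with a median of −1.14, where 23.4% of all fell and the median was −0.16. Hcst, the DAP10 adaptor of NKG2D, read 4022 and 5625 on the wild-type and 5822 and 4373 on the knockout arrays of naive cells. Activated cells gave 304 and 304 (wild type) and 244 and 378 (knockout). It fell by 3.90 in wild-type (SE 0.24, adjusted p = 6.4e-07) and by 3.99 in knockout cells (SE 0.24, adjusted p = 5.05e-07), while its receptor gene Klrk1 rose. Tyrobp fell by 1.27 and 2.24 (adjusted p = 0.047 and 0.00235). Ptpn6, the phosphatase SHP-1 recruited by inhibitory receptors, fell by 0.78 and 1.08 (adjusted p = 0.000538 and 4.91e-05). Ptpn11, encoding SHP-2, did not pass in either genotype (0.19 and −0.10), and it was named after its values were seen. Between genotypes 0 of 19 passed in naive and 0 in activated cells.

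Of 9 ligand genes tested from a list of 22, 5 fell in wild-type and 2 in knockout cells on activation. Of all probe sets tested, 21.8% (wild type) and 23.4% (knockout) fell, and the knockout count is near that share. Clec2d, a ligand of an NKR-P1 receptor, fell by 2.12 and 2.88 (adjusted p = 0.000726 and 7.71e-05), from 806 and 1449 to 178 and 311 in wild-type cells. H2-K1, a classical class I gene on a probe set that may cross-hybridise, fell by 1.01 and 0.67 (adjusted p = 1.45e-05 and 0.000252). Ulbp1, a ligand of NKG2D named after its values were seen, read 31.5 to 123 and did not pass. Of the ligand genes, 0 passed between genotypes in either state. Other killer cell lectin-like receptor genes were dim. Of 19 listed 9 had a probe set of their own and 2 were tested, and Klrb1f fell by 2.39 in knockout cells (adjusted p = 0.0117).

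Transcription factors and cytokine receptors chosen as possible regulators were followed beside the receptors, and their control of the receptors was not tested. Of 17 tested, Ikzf2, which encodes Helios, rose in the knockout in both states, from 319 and 334 to 1216 and 1279 in naive cells (log2 1.88, adjusted p = 0.0013) and by 0.97 in activated cells (adjusted p = 0.0459). Tbx21, encoding T-bet, read 736 and 769.7 on the wild-type and 1252 and 1312 on the knockout arrays of naive cells. The activated arrays gave 1581 and 1582 (wild type) and 1022 and 1013 (knockout). It was higher in the knockout in naive cells and lower in activated cells, on both arrays each time, as Klrc1 was. A link between Tbx21 and Klrc1 was not tested. The genotype changes of Tbx21 were 0.76 (adjusted p = 0.0754) and −0.63 (adjusted p = 0.163), and it rose on activation in wild-type cells (1.06, adjusted p = 0.000332). Eomes, a T-box factor of memory cells, gave 0.91 in naive and −0.49 in activated cells between genotypes (adjusted p = 0.14 and 0.483). Id2 went the other way, with −0.34 and 0.46 (adjusted p = 0.414 and 0.308). Bach2 gave 0.65 and 0.051 (adjusted p = 0.127 and 0.95), and Id3 gave 0.23 and −0.76 (adjusted p = 0.732 and 0.198). Of the 17, 14 were higher in the knockout in naive and 12 in activated cells.

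Of 17 memory and cytotoxic genes tested, 0 passed between genotypes in either state, with medians of 0.39 in naive and −0.18 in activated cells. In naive cells 14 of the 17 were higher in the knockout. Ifng, with the smallest p there, was lower, at 1017 and 2382 (wild type) and 657 and 549.7 (knockout) (log2 −1.35, adjusted p = 0.098). Gzmk, a granzyme of memory CD8+ cells, read 175 and 199 (wild type) and 611 and 843 (knockout) on naive arrays (log2 1.86, adjusted p = 0.237). Cd44 gave 0.083 (adjusted p = 0.931). On activation 4 rose (Gzmb, Ifng, Cd44 and Fasl) in each genotype, and 9 fell in wild-type and 11 in knockout cells. Over all probe sets tested, 17.4% rose and 21.8% fell in wild-type cells, and 18.2% and 23.4% in knockout cells. Ccl5, a chemokine of memory cells, fell by 4.50 and 5.50 (adjusted p = 1.55e-07 and 4.18e-08).

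The genes whose pattern over the 8 arrays was most like a receptor's were found by the root mean square difference of log2 values, each centred on its own mean. For Klrd1 these were Rinl, Mta3 and Zfp652, at 0.12, 0.13 and 0.13. For Klrk1 they were Nasp, Serbp1 and Igll1 (0.17, 0.18 and 0.22), for Klrg1 Rere, Vps13d and Abca2 (0.16, 0.29 and 0.30), and for Klrc1 Trps1, Casp4 and Gcnt1 (0.33, 0.37 and 0.38). Between receptors, the smallest difference was that of Klrc1 and Klrk1, 0.58, followed by Klrd1 and Klrg1 at 0.60, while Klrc1 and its partner Klrd1 differed by 2.29. With 8 arrays that share 2 states, these values describe the patterns and test nothing.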

How the data were processed

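Linear-scale intensity values, 1 for each probe set on each array, were deposited by the authors. They were made with MAS5, per the submitters' processing notes, with the version not given there. In that table the 2% trimmed mean of every array was 500. Precision is limited by there being 2 arrays for each group. Symbols came from the platform's annotation and were updated through Entrez identifiers with the GRCm38.p6 gene table, which matched 34754 of 34958 probe sets with 1 symbol. A further 932 had several symbols and 9211 none.

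The fits used limma 3.58.1 under R 4.3.3. After 64 control probe sets were left out, those that reached the median of the array on 2 or more of the 8 were tested, 27389 in all. The log2 of intensity + 16 was fitted with 4 group means (lmFit, eBayes with a trend), which left 4 residual degrees of freedom and a prior of 6.68. Tests were two-sided, with Benjamini-Hochberg adjustment within each of 5 contrasts and a threshold of 0.05. The fit was tested on simulated data.

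The receptors, the gene lists and the rule for named genes (all members, and of each list those that passed and up to 4 with the smallest p, and for 4 members the 3 genes most like them) were chosen with earlier results of these data known. Where a listed gene had several probe sets, the brightest tested one was used. The alternatives were other offsets, scalings, filters, prior variance, arrays and covariates, a replicate block, the removal of _x_at and _s_at probe sets, and leaving out each array. Where that left 1 array in a group, its spread was assumed to be that of the remaining groups.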

Additional observations from a re-analysis of the deposited data

How the results depend on the processing

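Of 643 values of the 35 receptor changes under 19 alternatives, 572 kept their direction and their side of the threshold, 50 lost and 16 gained a call, and 5 changed direction, 0 of them from a called change. The 5 were Klrd1 in naive cells with quantile normalization (0.041) and without wild-type naive replicate 1 (0.036, with a range of −0.35 to 0.036 over the arrays left out), Klrk1 in naive cells without that array (−0.16, range −0.16 to 1.05), Klra7 on wild-type activation with the Actb ratio as a covariate (0.52), and Klra7 on knockout activation without knockout naive replicate 1 (−0.026, range −0.026 to 0.41). The cause was not tested. The count of receptors past the threshold between genotypes in naive cells, 1 as reported, was 0 without an offset, with no filter, with a filter at 6 of 8 arrays, without a trend, with the 4 naive arrays alone, with the replicate block, without probe sets that may cross-hybridise and with the Actb ratio. It was 0 to 2 without 1 array. The 6 of 8 filter and the removal of _x_at probe sets take Klra8 out of the table. In activated cells the count of 0 was 2 with those 4 arrays alone and 0 to 1 without 1 array. On activation the wild-type count of 5 was 3 with no filter, 0 with the Actb ratio and 3 to 5 without 1 array, and the knockout count of 6 was 0 with the Actb ratio and 4 to 6 without 1 array. The Actb ratio differs between states throughout, and with it 484 and 0 probe sets in all were called on activation, against 10714 and 11396. The count for the difference between states, 0, was 1 with an offset of 64, with median centring and without probe sets that may cross-hybridise, and 0 to 1 without 1 array.

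Over all probe sets, the naive genotype count of 154 was 102 with no filter, 18 with the Actb ratio, 5 with the 4 arrays alone, 3 without a trend and 26 to 232 without 1 array. The activated count of 59 was 31 with median centring, 26 with the replicate block, 7 without a trend, 6 with the Actb ratio, 719 with the 4 arrays alone and 8 to 100 without 1 array. The count of 16 for the difference between states was 26 with an offset of 64, 0 without a trend or with the Actb ratio and 0 to 83 without 1 array. Median centring moved the share of higher calls from 55.8% to 72.7% in naive cells, from 52.5% to 64.5% in activated cells and from 44.4% to 55.2% on wild-type activation. Same-numbered replicates deviated together at r = −0.17 to 0.068 over probe sets in the 6 pairs of groups, so the numbers were not taken as pairs. With the replicate block the Klra8 call in naive cells was lost, and 0 other receptor counts moved by over 1.5 times. MAS5 detection calls were not used here, so a dim value has no bound of its own.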

Other observations

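The only probe set that lists Klra3 is annotated to Klra9 as well and ends in _x_at, so its signal can be given to neither gene. It read 939 and 1701 on the wild-type and 4272 and 2740.2 on the knockout arrays of naive cells. After activation the values were 418 and 477 (wild type) and 499 and 674 (knockout). It was 2.66-fold higher in naive knockout cells (log2 1.43, SE 0.30, adjusted p = 0.0747), and both knockout values lay above both wild-type values. On activation it fell by 1.47 in wild-type (adjusted p = 0.00244) and by 2.53 in knockout cells (adjusted p = 5.27e-05). The only probe set that lists Klrb1c is annotated to Klrb1b as well. That probe set read 8.46 and 37.2 (wild type) and 45.2 and 132 (knockout) on the naive arrays, and it did not pass the filter.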
